A study of Mus musculus with 8 samples.

Results

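The immediate early and activity-induced genes are those whose transcription follows synaptic activity within minutes to hours, and they were followed here in the hippocampus of mice that lack SAP97 in the nervous system. A list of 36 such genes was matched by gene symbol to a table of 25834 genes. Of these, 35 had counts, 31 of 32 rapid genes and 4 of 4 delayed genes, and Jund was not analysed here. The rapid genes were those induced without new protein synthesis, and the delayed genes (Nptx2, Inhba, Pcsk1 and Vgf) were those that follow more slowly, as known from general knowledge of these genes. RNA was sequenced from 4 control and 4 SAP97-cKO hippocampi, all male, with 1 library per mouse. SAP97-cKO mice carried Nestin-cre and 2 floxed SAP97 (Dlg1) alleles (Nestin-cre+/-; SAP97fl/fl). Nestin-cre is known in general to act in neural progenitors, and so in neurons and glia descended from them. Recombination by cell type was not measured here. The Nestin-cre line was on a C57Bl/6 background, and controls were littermates that carried Nestin-cre alone, floxed SAP97 alone or were wild type. The genotype of each control library, the age of the sequenced mice and the time of day at which tissue was taken are not given in the sources used here. For RNA from dissected brain the study's methods describe pentobarbital anaesthesia followed by decapitation, in a passage on complementary DNA rather than on sequencing. Total depth was nearly equal, because the authors had resampled reads to a common number. The deposited counts summed to 37388177 to 37416649 in the control libraries and to 37391907 to 37426572 in the SAP97-cKO libraries. Below, scaled counts are deposited counts divided by edgeR's TMM library factors, which lay between 0.964 and 1.03, and control 1 to 4 and SAP97-cKO 1 to 4 are the libraries under their numbers in the labels.

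Dlg1, the gene for SAP97 (ENSMUSG00000022770, chromosome 16, 31663443 to 31875129, plus strand of GRCm38, the build of all coordinates given), was read first as a check of the labels. Its scaled counts were 4127, 4549, 3982 and 4689.8 in control 1 to 4 and 2353, 3064, 2143 and 2008 in SAP97-cKO 1 to 4. All 4 SAP97-cKO libraries were below all 4 control libraries, so no label was contradicted, and SAP97-cKO 2 held the most Dlg1 among the 4. The log2 fold change of Dlg1 (SAP97-cKO over control, here and throughout) was -0.86 (standard error 0.12, adjusted p = 0.143 by Benjamini and Hochberg's method after edgeR's quasi-likelihood test), and the exact permutation p was 0.0286, the smallest that 70 assignments of 4 against 4 allow. Without control 2, SAP97-cKO 3 or SAP97-cKO 4 the edgeR adjusted p was 0.424, 0.524 and 0.346, above the threshold of 0.25 that the study used and that was kept here, while the log2 fold change was -0.83, -0.80 and -0.78. In these same fits 0 of all genes passed. These counts cover the whole gene and not the deleted stretch alone.

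Synaptic activity admits calcium into a neuron through NMDA receptors and L-type calcium channels, and calcium-dependent kinases and the MAP kinase cascade then carry the signal to transcription factors already bound to DNA, among them CREB, SRF with its partners, and MEF2. Rapid genes are transcribed at once and encode mostly transcription factors (the Fos, Jun, Egr and Nr4a families and Npas4), feedback inhibitors of kinases (Dusp1, Dusp6) and the synaptic regulator Arc. Delayed genes encode secreted proteins and peptides that act on synapses, and in the hippocampus both sets are widely used as marks of recently active neurons.

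The question put to the counts was whether any of these genes differed between SAP97-cKO and control hippocampi. None of the 35 passed an adjusted p under 0.25 in edgeR's quasi-likelihood test, against 0.283% of all 16251 genes tested that passed as lower (46 genes) and 0.0123% that passed as higher (2 genes). The lowest adjusted p of a member in that test was 0.392, that of Egr3. At an unadjusted edgeR p under 0.05 there were 2 members, Egr3 and Klf4, against 11.7% of all genes. With limma-voom 0 members passed an adjusted p under 0.25, against 0.308% of all genes, and 2 had an unadjusted p under 0.05, against 1872 of all 16251 genes. With DESeq2 0 members passed, against 6.36% of all genes, and 3 had an unadjusted p under 0.05, against 2047 of all 16251 genes. No member had groups that did not overlap, against 2.78% of all genes with every SAP97-cKO library above every control and 3.47% with every SAP97-cKO library below.

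These counts depended on single libraries. Without control 1 there were 5 members past an adjusted p under 0.25 in edgeR's quasi-likelihood test, against 10.2% of all genes (1675). They were Egr3, Klf10, Nr4a3 and Plk2, with log2 fold changes of 0.36, 0.35, 0.43 and 0.26, and Maff, with -0.68. Without SAP97-cKO 1 there was 1, Vgf, against 4.32% of all genes (711). Leaving out any of the other 6 libraries gave 0 members past the threshold, and without control 2, SAP97-cKO 3 or SAP97-cKO 4 it was passed by 0 of all genes too, with 1403, 1259 and 1167 of them at an unadjusted p under 0.05.

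Fitted differences leaned upward without passing the test. The log2 fold change was above 0 in 26 of 35 members, against 47.2% of all genes tested, and its median over the members was 0.15, against -0.012 over all genes. Among the rapid genes it was above 0 in 22 of 31, with a median of 0.15, or 0.098 with limma-voom and 0.093 with the replicate number as a block. Among the delayed genes it was above 0 in 4 of 4, with a median of 0.29, and the difference between rapid and delayed genes was not tested. Without SAP97-cKO 2 the values were above 0 in 20 of 35 members, against 46.3% of all genes, and the medians were 0.012 over the rapid genes and 0.15 over the delayed genes. Without control 2 the rapid median was 0.045. Leaving out any other library gave medians from 0.11 to 0.22 over the rapid genes.

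**Figure D1:**
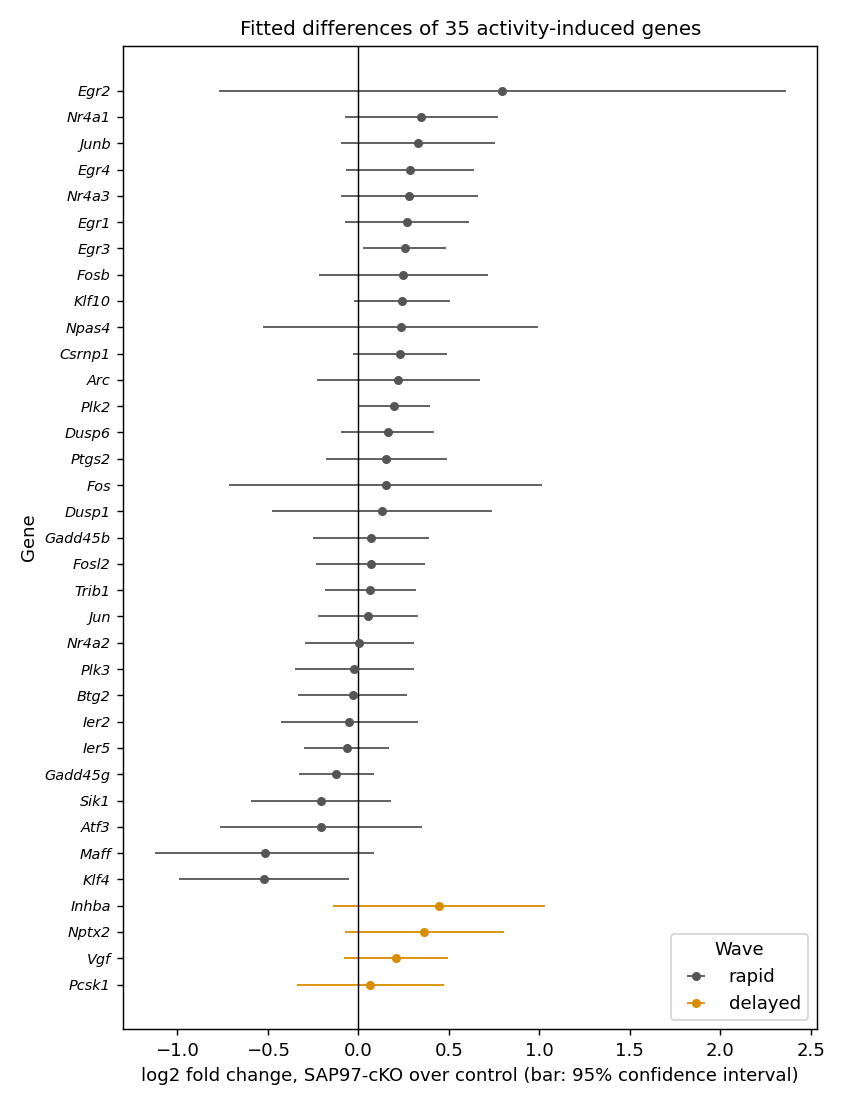
Log2 fold change (SAP97-cKO over control, horizontal axis) of the 35 activity-induced genes with counts (vertical axis), with unadjusted 95% confidence intervals as bars, rapid genes in grey and delayed genes in orange. The intervals of 33 genes include 0, and those of Egr3 (above 0) and Klf4 (below 0) do not.

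Fos, Fosb and Junb, subunits of the AP-1 transcription factor, spread widely among mice of the same genotype. Fos (ENSMUSG00000021250, chromosome 12, 85473890 to 85477273, plus strand) had scaled counts of 391, 213, 353 and 535 in control 1 to 4 and 203, 792, 349 and 312 in SAP97-cKO 1 to 4. SAP97-cKO 2 stood highest and SAP97-cKO 1 lowest of all 8 libraries, so the groups overlapped completely. Its log2 fold change was 0.15 (standard error 0.39, edgeR adjusted p = 0.892, exact permutation p = 0.886), and without SAP97-cKO 2 it was -0.37. With limma-voom it was 0.041 and with the replicate number as a block 0.012. The same value for Fos was -0.041 without control 2, 0.23 without SAP97-cKO 3, 0.27 without SAP97-cKO 4, 0.38 without control 4 and 0.38 without SAP97-cKO 1. Fosb (ENSMUSG00000003545, chromosome 7, 19302696 to 19310051, minus strand), a paralogue that also yields the long-lived ΔFosB protein, had 423, 335, 277 and 366 scaled counts in control 1 to 4 and 286, 597, 400.1 and 381 in SAP97-cKO 1 to 4. Again SAP97-cKO 2 was the highest library, and the other 3 SAP97-cKO libraries lay within the control range. For Fosb the log2 fold change was 0.25 (standard error 0.21, edgeR adjusted p = 0.633, exact permutation p = 0.457), and 0.023 without SAP97-cKO 2, 0.40 without SAP97-cKO 1 and 0.16 without control 3.

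Junb (ENSMUSG00000052837, chromosome 8, 84974484 to 84978718, minus strand), a dimer partner of the Fos proteins, had 1604, 1049, 1141 and 1501 scaled counts in control 1 to 4 and 1135, 2131, 1564 and 1819 in SAP97-cKO 1 to 4. SAP97-cKO 2 and SAP97-cKO 4 lay above every control, while SAP97-cKO 1 lay among the lowest libraries with control 2 and control 3. Its log2 fold change of 0.33 had a standard error of 0.19 (edgeR adjusted p = 0.506, exact permutation p = 0.229). The value for Junb was 0.19 without SAP97-cKO 2 and 0.48 without SAP97-cKO 1. The remaining leucine zipper factors were Fosl2 and Jun, with log2 fold changes of 0.069 and 0.056, and Atf3 and Maff, with -0.21 and -0.52. Leaving out 1 library put Fosl2 between -0.011 (without control 3) and 0.20 (without control 1) and Jun between -0.028 (without SAP97-cKO 3) and 0.13 (without SAP97-cKO 1). Atf3 was at -0.013 without control 4, -0.11 without SAP97-cKO 3 and -0.33 without control 1, and Maff at -0.29 without control 3. Atf3, a stress-responsive factor, and Maff, a small Maf protein, were scarce, with 30.4 to 60.2 and 25.0 to 55.3 scaled counts over the 8 libraries. Of the 7 factors in the group, 5 had a log2 fold change above 0.

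The 4 Egr zinc finger factors shared 1 feature, which was that each was highest in SAP97-cKO 2. Egr1 (ENSMUSG00000038418, chromosome 18, 34859823 to 34864984, plus strand), the most abundant of them per length, had 2766, 3034, 2870.3 and 2988 scaled counts in control 1 to 4 and 2748, 4928, 3214 and 3148 in SAP97-cKO 1 to 4. Control libraries lay close together, as did SAP97-cKO 3 and SAP97-cKO 4 just above them, and SAP97-cKO 2 held 1.65 times the median of the other 7 libraries. The fitted log2 fold change was 0.27 (standard error 0.15, edgeR adjusted p = 0.501, exact permutation p = 0.229), 0.060 without SAP97-cKO 2 and 0.38 without SAP97-cKO 1. Egr2 (ENSMUSG00000037868, chromosome 10, 67535475 to 67542188, plus strand) had 62.0, 11.96, 19.4 and 64.0 scaled counts in control 1 to 4 and 28.5, 178, 42.5 and 23.9 in SAP97-cKO 1 to 4. This was the widest range of any member, 14.9-fold between SAP97-cKO 2 and control 2, and the other 3 SAP97-cKO libraries lay within the control range. The log2 fold change of Egr2 was 0.80 with a standard error of 0.71 (edgeR adjusted p = 0.648, exact permutation p = 0.714). It was -0.31 without SAP97-cKO 2, 0.48 with the replicate block, 0.50 without control 2 and 1.14 without control 4.

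Egr3 (ENSMUSG00000033730, chromosome 14, 70077203 to 70082614, plus strand), a target of Egr1 and of activity in its own right, had 1253, 1039, 951 and 928 scaled counts in control 1 to 4 and 1151, 1372, 1200.3 and 1259 in SAP97-cKO 1 to 4. Here 3 controls lay below every SAP97-cKO library, and control 1 lay within their range. Controls had a mean of 1043 ± 148 and SAP97-cKO mice one of 1246 ± 95.2 (SD, n = 4 for both), with a log2 fold change of 0.26 (standard error 0.10, edgeR adjusted p = 0.392, exact permutation p = 0.0857). Egr4 (ENSMUSG00000071341, chromosome 6, 85511121 to 85513589, minus strand) had 760.2, 574, 699 and 731 scaled counts in control 1 to 4 and 645, 1101, 731 and 891 in SAP97-cKO 1 to 4. SAP97-cKO 2 and SAP97-cKO 4 lay above every control, and the other 2 lay within the control range. This gave a log2 fold change of 0.29 (standard error 0.16, edgeR adjusted p = 0.489, exact permutation p = 0.229), 0.13 without SAP97-cKO 2 and 0.40 without SAP97-cKO 1.

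Of the Nr4a orphan nuclear receptors, Nr4a1 (ENSMUSG00000023034, chromosome 15, 101254269 to 101274795, plus strand) had 1578, 1037, 1189 and 1195 scaled counts in control 1 to 4 and 1212, 2274, 1413 and 1469 in SAP97-cKO 1 to 4. SAP97-cKO 2 stood alone above every other library, while the other 3 SAP97-cKO libraries lay within the control range. For Nr4a1 the log2 fold change was 0.35 (standard error 0.19, edgeR adjusted p = 0.479, exact permutation p = 0.229), 0.13 without SAP97-cKO 2 and 0.48 without control 1. Nr4a2 had 1993 to 2384 scaled counts in controls and 1862 to 2956 in SAP97-cKO mice and a log2 fold change of 0.0060 that turned to -0.036 without scaling and lay between -0.16 (without SAP97-cKO 2) and 0.085 (without SAP97-cKO 4) when 1 library was left out. Nr4a3 ranged from 2035 to 3519.9 in controls and from 2708 to 4213 in SAP97-cKO mice, with SAP97-cKO 4 and not SAP97-cKO 2 the highest library and a log2 fold change of 0.28, or 0.15 without SAP97-cKO 4, 0.16 without control 4 and 0.43 without control 1.

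Npas4 (ENSMUSG00000045903, chromosome 19, 4984355 to 4990316, minus strand), a factor that in neurons answers calcium entry in particular, had 244, 114, 147 and 283 scaled counts in control 1 to 4 and 113, 330.4, 250.2 and 232 in SAP97-cKO 1 to 4. Low libraries occurred in both groups (control 2, control 3 and SAP97-cKO 1), and SAP97-cKO 2 was the highest. Between groups the log2 fold change was 0.23 (standard error 0.34, edgeR adjusted p = 0.789, exact permutation p = 0.600). Single libraries moved this value, to 0.012 without SAP97-cKO 2, 0.044 without control 2, 0.12 without control 3, 0.35 without control 1, 0.47 without SAP97-cKO 1 and 0.46 without control 4. Klf4 (ENSMUSG00000003032, chromosome 4, 55527143 to 55532466, minus strand), a Krüppel-like factor known from pluripotent cells and from endothelium as well as from neurons, had 241, 217, 186 and 247 scaled counts in control 1 to 4 and 133, 215, 171 and 102 in SAP97-cKO 1 to 4. It ran the other way from most members, as 3 SAP97-cKO libraries lay below every control and SAP97-cKO 2 lay within the control range. Controls had a mean of 223 ± 27.7 and SAP97-cKO mice one of 155 ± 48.9 (SD, n = 4 for both), with a log2 fold change of -0.52 (standard error 0.21, edgeR adjusted p = 0.395, exact permutation p = 0.0571). The log2 fold change of Klf4 was -0.36 without SAP97-cKO 4 and -0.72 without SAP97-cKO 2. The 6 endothelial marker genes had log2 fold changes below 0 in 6 of 6, from -0.31 to -0.0014, with a median of -0.22 (-0.34 without SAP97-cKO 1, -0.12 without SAP97-cKO 4). With DESeq2, or without a filter, 1 of the 6 was above 0. Of these genes 0 passed the threshold in edgeR, limma-voom or DESeq2, and 0 had an unadjusted edgeR p under 0.05. Without SAP97-cKO 1 edgeR called 3 of 6, against 4.32% of all genes. The part of the endothelial genes in the Klf4 values was not tested. The other nuclear regulators were Klf10 and Csrnp1, with log2 fold changes of 0.24 and 0.23, and Ier2 and Ier5, with -0.049 and -0.065. Klf10 was at 0.15 without control 2. With 1 library left out Ier2 lay between -0.17 (without control 2) and 0.064 (without control 4) and Ier5 between -0.13 (without control 1) and 0.020 (without control 4).

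Arc (ENSMUSG00000022602, chromosome 15, 74669083 to 74672570, minus strand), which encodes a regulator of AMPA receptor endocytosis whose messenger RNA travels to active dendrites, had 4373, 2192, 2989 and 3692 scaled counts in control 1 to 4 and 2859, 4705, 4026 and 3858 in SAP97-cKO 1 to 4. The highest library was SAP97-cKO 2 and the lowest control 2, and 3 SAP97-cKO libraries lay within the control range. Controls had a mean of 3311 ± 936 and SAP97-cKO mice one of 3862 ± 763 (SD, n = 4 for both), a difference smaller than the spread among controls, with a log2 fold change of 0.22 (standard error 0.20, edgeR adjusted p = 0.657, exact permutation p = 0.371). It moved to 0.11 without SAP97-cKO 2, 0.068 without control 2, 0.35 without SAP97-cKO 1 and 0.39 without control 1.

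Among the kinases, phosphatases and signalling enzymes, Dusp1 (ENSMUSG00000024190, chromosome 17, 26505590 to 26562128, minus strand), a nuclear phosphatase that switches MAP kinases off, had 559, 400.5, 481 and 789.9 scaled counts in control 1 to 4 and 413, 958, 606 and 463 in SAP97-cKO 1 to 4. SAP97-cKO 2 was the highest library and control 4 the next, and control 2 and SAP97-cKO 1 were the lowest. Its log2 fold change was 0.13 (standard error 0.27, edgeR adjusted p = 0.864, exact permutation p = 0.686), and without SAP97-cKO 2 it was -0.17. The same value for Dusp1 was 0.0012 without control 2, 0.073 without control 3, 0.24 without SAP97-cKO 4, 0.28 without SAP97-cKO 1 and 0.35 without control 4. Plk2, a polo-like kinase that takes part in the downscaling of synapses after high activity, held 6971 to 8731 scaled counts in controls and 8126 to 9614 in SAP97-cKO mice, and its 2 highest libraries were SAP97-cKO 4 and SAP97-cKO 1. The fitted log2 fold change was 0.20 (standard error 0.090, edgeR adjusted p = 0.426). The ERK phosphatase gene Dusp6 had a log2 fold change of 0.16, the prostaglandin synthase gene Ptgs2 0.15, the pseudokinase gene Trib1 0.067, the polo-like kinase gene Plk3 -0.022 and the salt-inducible kinase gene Sik1 -0.21. Dusp6 was at 0.070 without control 2, 0.11 without SAP97-cKO 4 and 0.25 without SAP97-cKO 1. Ptgs2 was at 0.064 without SAP97-cKO 3, 0.076 without SAP97-cKO 4, 0.086 without control 4 and 0.27 without SAP97-cKO 2, and Sik1 at -0.092 without SAP97-cKO 1, -0.12 without SAP97-cKO 4 and -0.40 without SAP97-cKO 2. Trib1 lay between -0.0027 (without SAP97-cKO 2) and 0.14 (without SAP97-cKO 1) and Plk3 between -0.11 (without SAP97-cKO 2) and 0.073 (without control 4) with 1 library left out. Ptgs2 was the only member that was lowest in SAP97-cKO 2. The growth arrest genes Btg2, Gadd45b and Gadd45g had log2 fold changes of -0.031, 0.072 and -0.12. With 1 library left out Btg2 lay between -0.11 (without SAP97-cKO 2) and 0.10 (without control 4) and Gadd45b between -0.011 (without control 2) and 0.17 (without SAP97-cKO 1), and Gadd45g was at -0.069 without SAP97-cKO 1 and -0.062 without control 4.

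**Figure D2:**
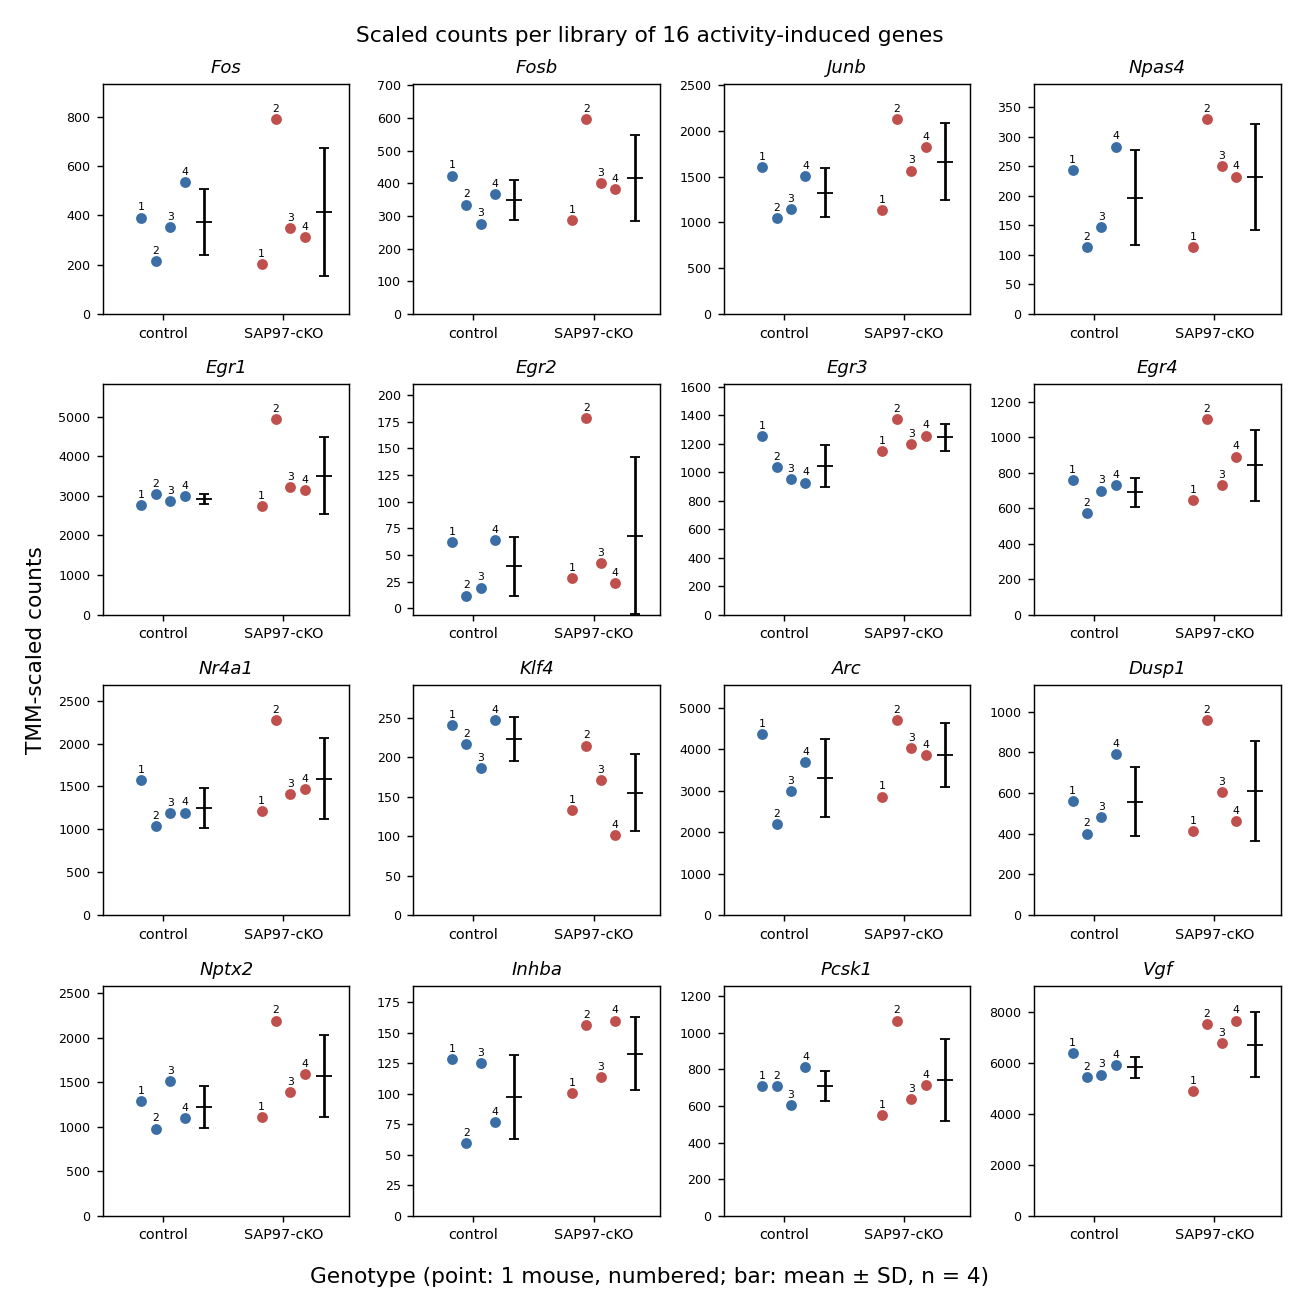
Scaled counts (vertical axis, TMM-scaled) of 16 activity-induced genes in 4 control (blue) and 4 SAP97-cKO (red) libraries (horizontal axis), each point 1 mouse with its library number, and bars the mean ± SD (n = 4). SAP97-cKO 2 is the highest point for 13 of these 16 genes, and the groups overlap for each of them.

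The 4 delayed genes all encode secreted proteins or their processing enzyme. Nptx2 (ENSMUSG00000059991, chromosome 5, 144545902 to 144557478, plus strand), a neuronal pentraxin that clusters AMPA receptors, had 1287, 979, 1513 and 1097 scaled counts in control 1 to 4 and 1111, 2189, 1389.7 and 1591 in SAP97-cKO 1 to 4. SAP97-cKO 2 and SAP97-cKO 4 lay above every control, and the other 2 lay within the control range. This gave a log2 fold change of 0.37 (standard error 0.20, edgeR adjusted p = 0.478, exact permutation p = 0.200). It was 0.16 without SAP97-cKO 2, 0.50 without control 3 and 0.51 without SAP97-cKO 1. Inhba (ENSMUSG00000041324, chromosome 13, 16011851 to 16031621, plus strand), the activin beta A subunit, had 128, 59.8, 125 and 76.7 scaled counts in control 1 to 4 and 101, 156, 113 and 159.8 in SAP97-cKO 1 to 4. Control 2 and control 4 lay below every SAP97-cKO library, and the other 2 controls lay among them. The log2 fold change of Inhba was 0.44 (standard error 0.26, edgeR adjusted p = 0.515, exact permutation p = 0.171), 0.27 without control 2 and 0.60 without control 1.

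Pcsk1 (ENSMUSG00000021587, chromosome 13, 75089826 to 75134861, plus strand), a prohormone convertase of dense-core vesicles, had 709, 709, 606 and 811 scaled counts in control 1 to 4 and 552, 1067, 638 and 713 in SAP97-cKO 1 to 4. SAP97-cKO 2 was the highest library and SAP97-cKO 1 the lowest. Between groups the log2 fold change was 0.067 (standard error 0.18, edgeR adjusted p = 0.899), and without SAP97-cKO 2 it was -0.16. It was 0.030 with limma-voom, 0.031 with the replicate block and 0.025 without scaling. The same value for Pcsk1 was 0.0096 without control 3, 0.14 without SAP97-cKO 3, 0.14 without control 4 and 0.19 without SAP97-cKO 1. Vgf (ENSMUSG00000037428, chromosome 5, 137026392 to 137033351, plus strand), a neuropeptide precursor, had 6372, 5445, 5539.5 and 5928 scaled counts in control 1 to 4 and 4886, 7527, 6789 and 7659 in SAP97-cKO 1 to 4. The other 3 SAP97-cKO libraries lay above every control, but SAP97-cKO 1 lay below every control. With it the log2 fold change was 0.21 (standard error 0.13, edgeR adjusted p = 0.530, exact permutation p = 0.229). Without SAP97-cKO 1 it was 0.34 (edgeR adjusted p = 0.190), under the threshold of 0.25.

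The members varied more among mice of the same genotype than genes in general did. The median SD of log2 scaled counts within a genotype was 0.27 over the 35 members and 0.17 over all genes tested. Egr2 (1.25), Fos (0.70) and Npas4 (0.64) had the largest such SD among the members, and Gadd45g (0.12) and Plk2 (0.13) the smallest. For Egr2, Fos and Npas4 this SD was larger than the log2 fold change, and for Plk2 it was smaller.

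Single libraries stood apart across the list. SAP97-cKO 2 was the highest of the 8 libraries for 17 of 35 members (15 rapid and 2 delayed), against 12.8% of all genes tested. The lowest library was control 2 for 13 members, against 9.06% of all genes, and SAP97-cKO 1 for 10 members, against 14.2% of all genes. As a deviation from each gene's mean log2 scaled count over the 8 libraries, the median rapid gene was at 0.24 in SAP97-cKO 2, -0.20 in SAP97-cKO 1, -0.16 in control 2 and -0.14 in control 3. In the other 4 libraries it lay between 0.031 and 0.081. The median delayed gene was at 0.55 in SAP97-cKO 2, -0.33 in control 2 and -0.31 in SAP97-cKO 1. Control 4 was the highest library for 7 members, all of them rapid, against 22.9% of all genes. The median delayed gene was at 0.27 in SAP97-cKO 4 and at -0.18 in control 4, where the median rapid gene was at 0.031 and 0.047.

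**Figure D3:**
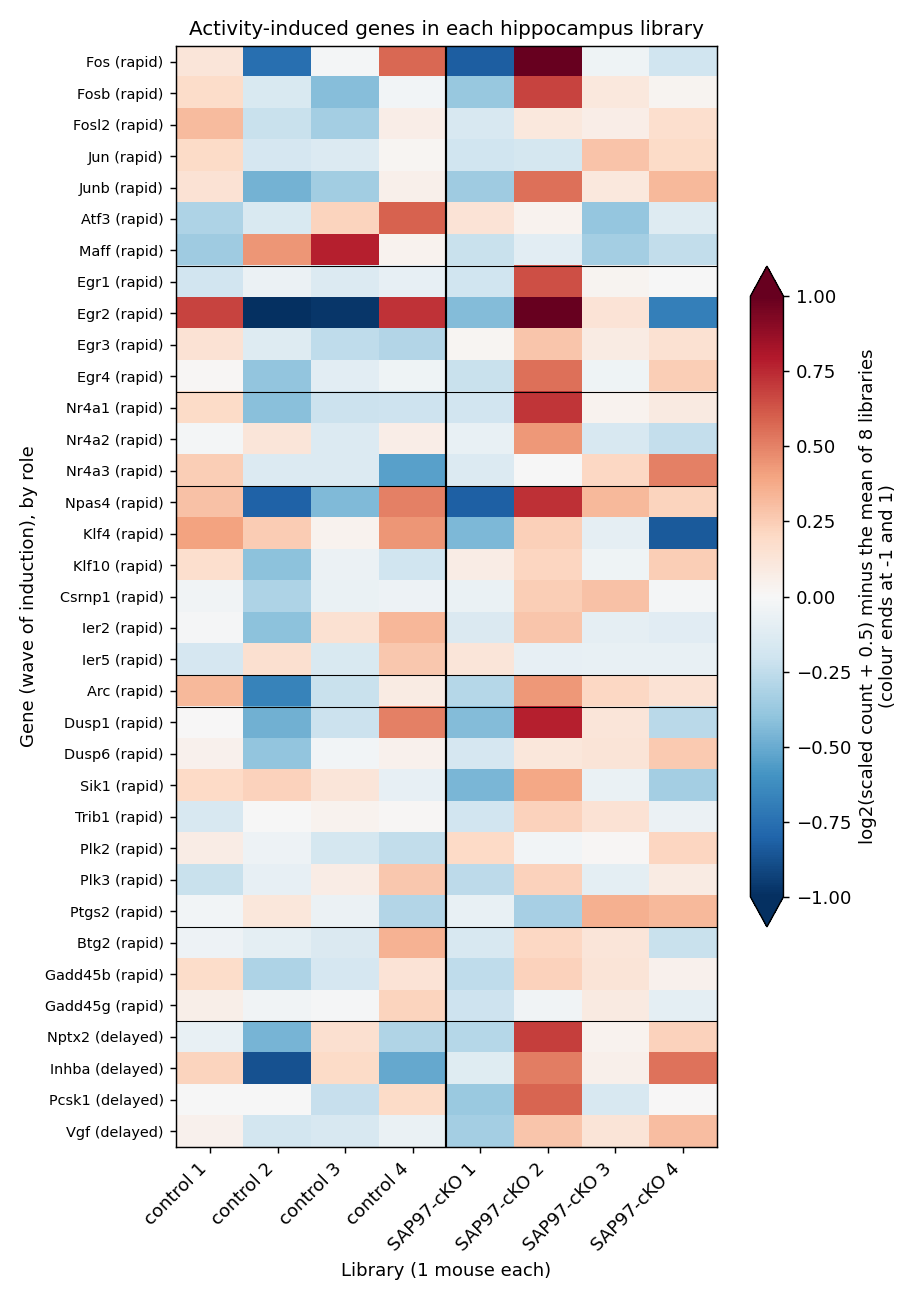
Deviation of log2 scaled counts (plus 0.5) from the mean of the 8 libraries (colour, red above and blue below, ends of the scale at -1 and 1) for the 35 members (1 line each, ordered by role, wave in brackets) in 4 control and 4 SAP97-cKO libraries (columns, 1 mouse each). The column of SAP97-cKO 2 is red for most rapid genes, with a median of 0.24, and the columns of control 2 and SAP97-cKO 1 are blue for most.

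Cell type and region markers of the same libraries were read beside this pattern. Hippocampal neuron markers (10 genes) had summed scaled counts of 57635, 51450.1, 48449.7 and 43061 in control libraries 1 to 4 and 62596, 43199, 56787 and 62979 in SAP97-cKO libraries 1 to 4, with Zbtb20 the most abundant gene. SAP97-cKO 2 and control 4 thus held the least of this sum, and of the 10 genes 4 were lowest and 1 was highest in SAP97-cKO 2. The dentate gyrus markers Prox1, C1ql2 and Dsp, singled out after their values were seen, were each lowest in SAP97-cKO 2, at 2434 scaled counts for Prox1, 1393 for C1ql2 and 902 for Dsp, against 3396 to 6465, 2385 to 3369.7 and 1544 to 3932 in the other 7 libraries. Neocortex markers (6 genes, Tbr1 most abundant) summed to 4883, 5446, 4008 and 5149 in control libraries 1 to 4 and 4826, 6843, 4673 and 4652 in SAP97-cKO libraries 1 to 4, highest in SAP97-cKO 2. Striatum markers (6 genes, Ppp1r1b most abundant) summed to 2859, 4513, 3747 and 3468 in control libraries 1 to 4 and 2858, 5346, 3105 and 2464 in SAP97-cKO libraries 1 to 4, and again SAP97-cKO 2 was highest. Gene by gene, SAP97-cKO 2 was the highest library for 3 of the 6 neocortex genes and 4 of the 6 striatum genes. Thalamus markers (6 genes, Prkcd most abundant) summed to 1726, 2223, 3862 and 1613 in control libraries 1 to 4 and 2069, 2005, 1824 and 1498 in SAP97-cKO libraries 1 to 4, highest in control 3, where Shox2 reached 175 scaled counts against 2.99 to 32.6 in the others. None of the marker genes of these lists was at 0 in any library. Fewer cells of a type and less RNA per cell cannot be told apart in such tissue RNA, and the part of these regional differences in the high values of SAP97-cKO 2 was not tested.

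Log2 fold changes were above 0 in 9 of 10 hippocampal neuron genes, with a median of 0.12. This median was 0.25 without SAP97-cKO 2, 0.18 without control 1 or control 2, 0.061 without SAP97-cKO 1 (6 of 10 above 0), 0.068 without SAP97-cKO 4, 0.064 without control 4 and 0.072 without scaling (7 of 10 above 0). They were above 0 in 4 of 6 neocortex genes, with a median of 0.074, which leaving out 1 library moved between -0.069 (SAP97-cKO 2) and 0.14 (control 4), with -0.013 without control 3, 0.047 without SAP97-cKO 3 and 0.028 without scaling. Striatum genes were above 0 in 5 of 6, with a median of 0.050, which was -0.30 without SAP97-cKO 2, -0.10 with limma-voom and -0.087 with the replicate block. Without SAP97-cKO 1, 3 or 4 the striatum median was 0.20, 0.25 and 0.30, without control 2, 3 or 4 it was 0.12, 0.11 and 0.18, and without scaling it was 0.018. For thalamus genes it was -0.52, with 0 of 6 above 0, or -0.061 without control 3. General neuron genes were above 0 in 5 of 8, with a median of 0.10 (0.051 without scaling), and their most abundant gene Snap25 held 99791 to 106006 scaled counts in controls and 92782 to 106658 in SAP97-cKO mice. In each of these 5 lists 0 genes passed the threshold in edgeR or limma-voom. At an unadjusted edgeR p under 0.05 there were 1 hippocampal neuron, 0 neocortex, 1 striatum, 1 thalamus and 3 neuron genes, and DESeq2 called 1, 0, 1, 1 and 2 of them. Without control 1 edgeR called 1 hippocampal neuron, 2 thalamus and 3 neuron genes, and without SAP97-cKO 1 it called 1 thalamus and 2 neuron genes. The shares of all genes in these 4 counts were 11.7% at an unadjusted edgeR p under 0.05, 6.36% with DESeq2, 10.2% without control 1 and 4.32% without SAP97-cKO 1.

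Oligodendrocyte genes were below 0 in 6 of 6, with a median of -0.47. None passed the threshold in edgeR or limma-voom, 4 had an unadjusted edgeR p under 0.05, DESeq2 called 1, and edgeR called all 6 without control 1 or without SAP97-cKO 1, where the shares of all genes were 11.7%, 6.36%, 10.2% and 4.32%. Their summed scaled counts (Mbp most abundant) were 204199, 303387, 278068 and 328888 in control libraries 1 to 4 and 288627, 169119, 174064 and 159787 in SAP97-cKO libraries 1 to 4, so that control 1 and 3 SAP97-cKO libraries formed the low end. Meningeal fibroblast genes were below 0 in 10 of 10, with a median of -1.08, and 6 of 10 passed the edgeR threshold as lower, against 0.283% of all genes. Leaving out control 1 or SAP97-cKO 1 made this 8, against 10.2% and 4.32% of all genes in either direction. Leaving out control 4 made it 3, against 32 of all 16434 genes in either direction. Leaving out control 2, SAP97-cKO 3 or SAP97-cKO 4 made it 0, where 0 of all genes passed too. The median was -1.10 without control 4, -0.97 without control 2, -1.09 without SAP97-cKO 3 and -0.90 without SAP97-cKO 4. Their summed scaled counts (Igf2 most abundant) were 10182, 17384, 10584 and 9478 in control libraries 1 to 4 and 5908, 9478, 8261 and 5888 in SAP97-cKO libraries 1 to 4. Choroid plexus genes (8 genes, Ttr most abundant) summed to 44394, 251856, 140541 and 6399.6 in control libraries 1 to 4 and 21088, 86707, 50259 and 3664 in SAP97-cKO libraries 1 to 4 and were below 0 in 8 of 8, with a median log2 fold change of -1.42, or -0.66 without control 2. In both groups these sums were highest in library 2, followed by 3, 1 and 4. With the replicate number as a block 6 of the 8 genes passed the threshold, against 256 of all 16251 genes. Whether libraries of the same number belong together is not given in the sources used here. Astrocyte genes gave a median log2 fold change of 0.072 over 6 genes, 5 of them above 0 (Slc1a2 most abundant). It was 0.0030 without SAP97-cKO 1 and 0.048 without control 1 (3 of 6 above 0 in either), 0.14 without control 4 (6 of 6) and 0.025 without scaling (3 of 6). None of the choroid plexus and astrocyte genes passed the threshold in edgeR or limma-voom, 2 astrocyte genes had an unadjusted edgeR p under 0.05, and DESeq2 called 1 astrocyte gene, against the same shares of all genes. Without control 1 edgeR called 1 choroid plexus and 1 astrocyte gene, against 10.2% of all genes. Without control 3 or SAP97-cKO 1 it called 1 astrocyte gene, against 55 of all 16435 genes and 4.32% of all genes. The endothelial sum (Flt1 most abundant) was 6904, 6399, 6701 and 5954 in control libraries 1 to 4 and 7583, 5642, 5742 and 4608 in SAP97-cKO libraries 1 to 4. The part of these cell types in the values of the activity-induced genes was not tested.

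Per length, the members covered a wide scale. As RPKM-type levels, which are scaled counts over exon length and library total, averaged over the 8 libraries, Vgf (56.4) and Plk2 (49.6) had the highest levels, followed by Jun (33.3), Arc (31.4) and Egr1 (19.2). The lowest levels on that scale were those of Maff (0.344), Egr2 (0.424), Inhba (0.481) and Atf3 (0.506). Fos stood at 4.48 and Npas4 at 1.39 on the same scale. Exons of Jun, Junb, Csrnp1, Dusp1 and Plk3 overlapped exons of a gene on the opposite strand in the annotation, and because the strand of counting is not given in the sources used here, reads of those stretches cannot be told apart.

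A further 26 activity-induced genes outside the list were read in the same way. None passed the edgeR threshold of an adjusted p under 0.25, 12 of 26 had a log2 fold change above 0, and their median was -0.014, from -0.065 without SAP97-cKO 2 to 0.029 without control 1. With DESeq2 3 of the 26 passed, with limma-voom 0, and without control 1 edgeR called 1, where the shares of all genes were 6.36%, 0.308% and 10.2%. At an unadjusted edgeR p under 0.05 there were 3, all with lower values in SAP97-cKO mice. Of all 16251 genes 1139 were under that p as lower, and 11.7% in either direction. Tiparp, a poly(ADP-ribose) polymerase gene, had 807 to 875 scaled counts in controls and 643 to 778 in SAP97-cKO mice. Its groups did not overlap, which held for 1 of the 26 genes, against 3.47% of all genes as lower. The log2 fold change of Tiparp was -0.23 (standard error 0.079, edgeR adjusted p = 0.353). Zfp36, which encodes a protein that destabilises messenger RNAs, had 112 to 138 scaled counts in controls and 73.3 to 113 in SAP97-cKO mice, and a log2 fold change of -0.49 (edgeR adjusted p = 0.364). For Arl4d, a small GTPase gene, these were 402 to 510.4 and 283 to 405 scaled counts and -0.38 (edgeR adjusted p = 0.352). The summed scaled counts of the 26 genes (Scg2 most abundant) were 55029.9, 51329, 53228 and 53013 in control libraries 1 to 4 and 51245, 52115, 53299.7 and 53678 in SAP97-cKO libraries 1 to 4. Bdnf, the neurotrophin gene, had 1909.5, 1969.6, 1814 and 1723 scaled counts in control 1 to 4 and 1831, 1767, 2122 and 2329.9 in SAP97-cKO 1 to 4, with a log2 fold change of 0.12 (standard error 0.094). Unlike Fos or Egr1, Bdnf was not highest in SAP97-cKO 2. Homer1, whose short activity-induced form was not separated from the long forms in these gene counts, had 6289.7, 5109.8, 5299 and 4903 scaled counts in control 1 to 4 and 5320.3, 6432, 5355 and 5492 in SAP97-cKO 1 to 4, with a log2 fold change of 0.065 (standard error 0.094).

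Upstream of induction, 28 genes of factors, kinases and calcium entry were tested and 0 passed the edgeR threshold. Log2 fold changes were above 0 in 26 of 28, against 47.2% of all genes, with a median of 0.15. Without scaling 23 of 28 were above 0, and without control 4, the lowest library for 15 of the 28, it was 21 of 28 with a median of 0.11. With DESeq2 4 of the 28 passed an adjusted p under 0.25, with limma-voom 0 passed, and without control 1 edgeR called 6, where the shares of all genes were 6.36%, 0.308% and 10.2%. At an unadjusted edgeR p under 0.05 there were 5, all with higher values in SAP97-cKO mice. Of all 16251 genes 768 were under that p as higher, and 11.7% in either direction. Groups did not overlap for 2 of the 28, both higher in SAP97-cKO mice, against 2.78% of all genes. The summed scaled counts of the 28 genes (Camk2a most abundant) were 324273, 298912, 288337 and 282666 in control libraries 1 to 4 and 362306, 318207, 344152 and 372691 in SAP97-cKO libraries 1 to 4. The part of hippocampal neuron, oligodendrocyte and other cell types in these values was not tested. Mef2d, an activity-regulated transcription factor gene, had 6774 to 8541 scaled counts in controls and 8830.5 to 9522 in SAP97-cKO mice without overlap, and a log2 fold change of 0.24 (standard error 0.080, edgeR adjusted p = 0.347). Cacna1d, an L-type calcium channel gene, had 831 to 1491 in controls and 1525 to 1673 in SAP97-cKO mice, also without overlap, and a log2 fold change of 0.38 (edgeR adjusted p = 0.389). Crtc1, the gene of a CREB coactivator, had a log2 fold change of 0.24 (edgeR adjusted p = 0.396). For Camk2a, the calcium/calmodulin kinase of excitatory synapses, it was 0.28 (edgeR adjusted p = 0.374). For Grin1, the obligate NMDA receptor subunit, it was 0.28 (edgeR adjusted p = 0.386). The factors that bind the promoters of rapid genes before activity had log2 fold changes of -0.076 (standard error 0.076) for Creb1 and 0.15 (standard error 0.086) for Srf.

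Promoter sequences are shown because rapid genes are known for binding sites of CREB, SRF and the Egr factors close to their starts. Of the 35 members, 26 had a promoter in the RefSeq table for GRCm38.p6 used here. In the 250 bases before the start of transcription, the cyclic AMP response element TGACGTCA (its own reverse complement) was found in 4 of 26 members, Btg2, Dusp1, Pcsk1 and Plk2, or 15.4%, and in 1.60% of 27025 promoters of the same length. Its core TGACG, on either strand and including the full element, was found in 16 of 26 members, or 61.5%, and in 17.8% of all promoters. The Egr site GCGGGGGCG on either strand was found in 4 of 26 members, against 2.55% of all promoters, and TATAA on the strand of the gene in 8 of 26, against 16.8%. The AP-1 site TGAGTCA on either strand and the CArG box of SRF were found in 0 of 26, against 4.43% and 1.41% of all promoters, which says only that these letters were not in this window. The promoters below are those of the 4 members with the smallest edgeR p that had 1 start in that table and no annotated exon in the window, and that of Fos, which was added after its values were seen. Each runs 5′ to 3′ on the strand of its gene up to the base before the start, with the core TGACG or its reverse complement in capitals. Klf4 (chr4:55532476-55532725, minus strand) has 1 core, Plk2 (chr13:110394794-110395043, plus strand) the full element, Nr4a1 (chr15:101266596-101266845, plus strand) 4 cores, Egr4 (chr6:85513590-85513839, minus strand) 2 cores and Fos (chr12:85473640-85473889, plus strand) 2 cores.
Klf4: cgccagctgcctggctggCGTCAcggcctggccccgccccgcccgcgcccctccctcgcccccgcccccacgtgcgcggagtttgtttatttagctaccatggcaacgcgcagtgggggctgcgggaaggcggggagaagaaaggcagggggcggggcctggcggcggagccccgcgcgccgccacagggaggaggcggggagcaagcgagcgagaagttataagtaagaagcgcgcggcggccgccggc
Plk2: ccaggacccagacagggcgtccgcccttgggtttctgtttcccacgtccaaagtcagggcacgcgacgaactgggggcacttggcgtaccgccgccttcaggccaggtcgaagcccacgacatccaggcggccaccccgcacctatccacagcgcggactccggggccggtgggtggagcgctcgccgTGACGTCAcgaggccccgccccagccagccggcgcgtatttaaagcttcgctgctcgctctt
Nr4a1: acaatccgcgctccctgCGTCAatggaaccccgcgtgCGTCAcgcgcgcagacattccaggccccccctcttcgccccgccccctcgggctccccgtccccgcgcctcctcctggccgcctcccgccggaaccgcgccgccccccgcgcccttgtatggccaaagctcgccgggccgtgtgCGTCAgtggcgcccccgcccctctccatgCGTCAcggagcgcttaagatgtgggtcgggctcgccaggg
Egr4: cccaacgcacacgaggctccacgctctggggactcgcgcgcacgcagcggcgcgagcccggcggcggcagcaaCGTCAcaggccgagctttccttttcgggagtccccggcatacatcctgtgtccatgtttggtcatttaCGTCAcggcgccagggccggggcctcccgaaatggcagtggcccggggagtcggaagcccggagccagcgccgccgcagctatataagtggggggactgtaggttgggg
Fos: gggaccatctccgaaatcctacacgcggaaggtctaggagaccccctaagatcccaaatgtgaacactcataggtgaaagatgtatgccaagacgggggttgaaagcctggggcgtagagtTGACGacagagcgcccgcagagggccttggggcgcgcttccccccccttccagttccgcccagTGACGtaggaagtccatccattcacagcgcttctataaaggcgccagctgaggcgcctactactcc
A match of letters is a description of the sequence and was not tested against the counts.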

How the data were processed

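RNA of 8 male hippocampi, 4 control and 4 SAP97-cKO, was compared from the gene counts that the authors deposited. Their methods give alignment with STAR 2.5.3a to mm10 (GRCm38.p5), and their PORT pipeline then resampled the reads to equal depth before counting on Ensembl genes. Whether counting used the strand is not given in the sources used here. Columns with a fold change and its p and q from the authors' own comparison were left unused. Of 25834 genes, 16251 passed edgeR's filterByExpr (minimum count 10, minimum total 15). After TMM scaling these were tested by quasi-likelihood in edgeR 4.0.16 (R 4.3.3), p was adjusted by Benjamini and Hochberg's method over all of them, and an adjusted p under 0.25 was the threshold. A standard error is the size of the log2 fold change divided by the square root of F. Exact permutation tests (scipy 1.17.1) were two-sided, over 70 assignments of libraries, with 0.0286 as the smallest possible p. Alternatives were limma-voom (limma 3.58.1), DESeq2 1.42.0, other scaling and filters, a replicate block, an adjusted p under 0.05, and each library left out. Coordinates and exon lengths are from GENCODE M21. Promoters are RefSeq's. Plots were drawn with matplotlib 3.10.9. Named in full were 14 members chosen for their role and every other member at an unadjusted edgeR p under 0.05. Of the other activity-induced and upstream genes, those under that p and Bdnf, Homer1, Creb1 and Srf were named, and of a marker or response list its most abundant gene. Outside this rule, Shox2, Prox1, C1ql2 and Dsp were named for their values. Promoters were to be those of the members with the smallest p, off chromosome 18. The limits to genes with 1 start and no exon in the window were added after the sequences had been seen. Members and lists were chosen with earlier results of these data known.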

Additional observations from a re-analysis of the deposited data

Results flagged for a closer look

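Of 70 groups of 4 libraries (35 genes in 2 genotypes), 4 held a library far from the other 3, set by its gap to the nearest library as a share of the range of the group. Chance flags about 1 in 20 such groups. Egr2 stood at 178 scaled counts in SAP97-cKO 2, where the next SAP97-cKO library had 42.5. Ier2 stood at 253 in SAP97-cKO 2, where the next had 195. Ier5 stood at 2209 in SAP97-cKO 1, where the next had 1937. Csrnp1 stood at 278 in control 2, where the next control had 329.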

How the results depend on the processing

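Under the 7 alternatives that kept all libraries, 0 activity-induced genes passed an adjusted p under 0.25, and 0 passed 0.05. Over all genes, 46 lower and 2 higher became 588 and 445 with DESeq2, 89 and 15 without a filter, 94 and 1 without scaling, and 0 and 0 at an adjusted p under 0.05. With the replicate number as a block they became 234 and 22. The labels do not say that libraries of the same number are paired. Same-numbered libraries correlated at -0.062, 0.20, 0.090 and 0.26 after the group means were removed, and 2 of 4 numbers were best matched by their own. Leaving out each library in turn gave 0 to 960 lower and 0 to 715 higher genes, and 0 to 1 lower and 0 to 4 higher activity-induced genes. The log2 fold change of Nr4a2 reversed to -0.015 with limma-voom, -0.036 without scaling and -0.015 with the block. With each library left out, it changed sign for 13 genes, and ranged from -0.37 to 0.38 for Fos, -0.31 to 1.14 for Egr2, -0.17 to 0.35 for Dusp1, -0.16 to 0.19 for Pcsk1, -0.16 to 0.085 for Nr4a2, -0.17 to 0.064 for Ier2, -0.13 to 0.020 for Ier5, -0.11 to 0.073 for Plk3, -0.11 to 0.095 for Btg2, -0.011 to 0.20 for Fosl2, -0.011 to 0.17 for Gadd45b, -0.028 to 0.13 for Jun and -0.0027 to 0.14 for Trib1. The cause was not tested. The other 22 activity-induced genes kept their direction throughout. Low counts of Maff, Egr2 and Atf3 limit what their values can show.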

Other observations

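Genes of the heat shock and glucocorticoid responses were read as signs of the handling and stress state of the mice. All 8 heat shock genes had a log2 fold change below 0, with a median of -0.18, and 1 of 8 passed the edgeR threshold as lower, against 0.283% of all genes. Control 1 was the highest library for 8 of the 8, and without it the median was -0.014 and 2 passed, against 10.2% of all genes in either direction. Without SAP97-cKO 1 the median was -0.10. Their most abundant gene, Hsp90aa1, had 41145, 37552, 39108 and 35166 scaled counts in control 1 to 4 and 33053, 40897, 36874 and 38809 in SAP97-cKO 1 to 4. Of 8 glucocorticoid response genes, 7 had a log2 fold change below 0, with a median of -0.23 (-0.13 without control 3), and 2 passed the edgeR threshold as lower, or 3 without SAP97-cKO 1, against 4.32% of all genes in either direction. Without control 2, SAP97-cKO 3 or SAP97-cKO 4 there were 0 past the threshold in either list, where 0 of all genes passed too. Sgk1, their most abundant gene, had 3926, 4425, 3685 and 3528 scaled counts in control 1 to 4 and 2574, 2527, 2733 and 2694 in SAP97-cKO 1 to 4, and fell, with a log2 fold change of -0.56 (standard error 0.077, edgeR adjusted p = 0.143). The groups did not overlap for Sgk1, nor for 3.47% of all genes with every SAP97-cKO library below every control. They overlapped for each of the 35 activity-induced genes, where the shares of all genes without overlap were 2.78% as higher and 3.47% as lower. The part of either response in the values of the activity-induced genes was not tested.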
